A study of Mus musculus with 8 samples.

Results

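The clustered histone genes are the protein-coding genes whose mouse symbols begin with Hist1h, Hist2h, Hist3h or Hist4h. GENCODE vM21 annotates 67 of them, of which 64 were matched by Ensembl ID to the table of 35275 genes; Hist1h2bh, Hist1h2bm and Hist2h2bb were not analysed here. The 64 comprise 6 genes of the linker histone H1 and 18 of H2A, 15 of H2B, 12 of H3 and 13 of H4, the 4 core histones. The largest cluster, on mouse chromosome 13, holds 52, chromosome 3 holds 9, chromosome 11 holds 2 and chromosome 6 holds 1.

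Gene expression was measured by RNA sequencing in myotubes, the multinucleated cells formed when myogenic progenitor cells (MPCs, the muscle precursors) leave the cell cycle and fuse. The progenitors were primary cells of C57BL6/J mice, differentiated in a high-glucose medium (DMEM) to which 10% horse serum had been added. Extracellular vesicles (EVs) isolated with a polymer from proliferating primary progenitors were given to MPC EV myotubes, and vesicles prepared in the same way from growth medium to control myotubes, so that there was no group without vesicles. Libraries were made 12 h and 24 h later, 2 for each of the 4 groups (control 12 h, MPC EV 12 h, control 24 h, MPC EV 24 h), 8 in all. Whether the paired libraries were grown as independent cultures is not in the labels, and the p-values below therefore cover library-to-library spread that could be technical alone.

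Most clustered histone genes are replication-dependent: they are transcribed in bursts during S phase, when new DNA has to be packaged. Their messenger RNAs end in a short stem-loop instead of a poly(A) tail. The stem-loop is bound by SLBP and the RNA is cut just after it with the help of the U7 small nuclear ribonucleoprotein. Some of the genes also give longer, polyadenylated transcripts, which are known from differentiated cells. H2A, H2B, H3 and H4 form the nucleosome core, and H1 binds the DNA between nucleosomes.

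The stem-loop was looked for after the stop codon of each annotated transcript, by the conserved 16-base form of the histone 3′ stem-loop. It was found in 44 of the 64 genes, 21 to 58 bases after the stop codon. The commonest form stood in 24 genes. A set of 6 is shown because these genes carry most of the results below or show how the classes differ; capitals mark the 16 bases of the stem-loop, and the sequences are those of GENCODE vM21 transcripts on GRCm38, 5′ to 3′.
Hist1h1c (chr13:23739507-23739532, plus strand): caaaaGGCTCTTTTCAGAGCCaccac
Hist1h2ac (chr13:23683472-23683497, minus strand): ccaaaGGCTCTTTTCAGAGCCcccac
Hist2h3c2 (chr3:96238480-96238505, minus strand): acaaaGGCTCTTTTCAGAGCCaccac
Hist1h4h (chr13:23531453-23531478, plus strand): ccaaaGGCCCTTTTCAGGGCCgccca
Hist1h4i (chr13:22040961-22040986, minus strand): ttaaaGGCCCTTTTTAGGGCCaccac
Hist1h2bj (chr13:22043633-22043658, plus strand): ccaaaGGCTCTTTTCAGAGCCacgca
Hist1h1c, Hist1h2ac, Hist2h3c2 and Hist1h2bj share the commonest stem-loop, while the H4 genes have another stem, found in the same form as Hist1h4h in 7 genes and as Hist1h4i in 2. Hist1h2bc, an H2B gene, is annotated with 2 exons; the first ends 9 bases after the stop codon and a last exon of 733 bases follows. No stem-loop was found in the annotated transcript of Hist1h2bc or in that of Hist2h2be.

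The 250 bases upstream of the annotated start were available from RefSeq for 59 of the genes (build GRCm38.p6). Those of Hist1h1c and Hist1h4i are shown because both genes fell at 12 h (below). Capitals mark, on either strand, the CCAAT box with just these letters, the TATA box in the form TATAAA, the octamer motif in the form ATTTGCAT and the H1 box, an element known from H1 promoters, in the form AAACACA.
Hist1h1c (chr13:23738557-23738806, plus strand): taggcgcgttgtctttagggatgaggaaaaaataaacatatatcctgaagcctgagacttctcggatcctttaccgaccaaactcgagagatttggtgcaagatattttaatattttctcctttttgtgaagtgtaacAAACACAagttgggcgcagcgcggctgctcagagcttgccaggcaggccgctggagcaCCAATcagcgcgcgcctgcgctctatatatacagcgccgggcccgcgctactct
Hist1h4i (chr13:22041363-22041612, minus strand): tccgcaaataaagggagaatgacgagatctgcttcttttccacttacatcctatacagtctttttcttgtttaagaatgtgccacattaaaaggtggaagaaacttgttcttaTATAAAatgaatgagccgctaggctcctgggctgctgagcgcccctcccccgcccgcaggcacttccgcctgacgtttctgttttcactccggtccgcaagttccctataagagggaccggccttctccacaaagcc
The first holds an H1 box and a CCAAT box. The second holds the letters TATAAA near the middle of the stretch, not close to the start. The CCAAT box was found in 81.4% of the 59 promoters and in 34.5% of 27025 promoters of the same length over all genes. It stood in each of the 6 H1, 18 H2A and 13 H2B promoters, in 8 of 10 of H3 and in 3 of 12 of H4. The TATA box was found in 49.2%, against 13.0% over all genes. The octamer was found in 18.6%, against 1.61%, and lay in 7 H2A and 4 H2B promoters. The H1 box was found in 5 of 6 H1 promoters, against 6.22% of all promoters. These are matches of letters at any place in the 250 bases, not sites shown to be bound.

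Levels are given in FPKM, the fragments of a gene per kilobase of transcript and per 1000000 fragments of the library, and sums over genes in FPM, fragments per 1000000 of the library. Fragment numbers recovered from the FPKM put 16324184 to 20187736 fragments in a library. A gene was tested where its mean over the 8 libraries was at least 1 FPKM, which 14 histone genes and 10981 genes in all reached. The 14 are 3 H1, 3 H2A, 4 H2B, 2 H3 and 2 H4 genes, each described below, and their fragments limit how precisely each is known.

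A pair of genes held nearly all the histone signal. Hist1h1c, which encodes the linker histone H1.2 (chr13:23738808-23740367, a single exon), averaged 174.7 FPKM and ranked 358th of all genes. Hist1h2bc (chr13:23684199-23692908), which encodes a core H2B, averaged 142.8 FPKM and ranked 444th. Together they made up 85.1% to 88.6% of the summed FPKM of the 64 genes and 89.8% to 92.4% of their fragments in each library. The H4 genes Hist1h4h and Hist1h4i followed with means of 11.9 and 6.25 FPKM. The other 10 tested genes lay between 1.22 and 2.61 FPKM, the highest being Hist1h1e, which encodes H1.4.

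The gene just inside the limit of 1 FPKM was Hist1h2be (1.22 FPKM) and the one just outside it Hist1h2bj (0.791 FPKM). Of the 50 untested genes, 40 had a fragment in at least 1 library and none averaged over 8.12 fragments. The other 10 were at 0 in all 8 libraries: Hist2h2ab, Hist2h2aa1, Hist2h2aa2, Hist1h2aa, Hist1h2br, Hist1h2bk, Hist1h2ba, Hist2h3c1, Hist2h3b and Hist1h4b. A value of 0 may rest on how shared bases were counted: the annotated exons of Hist2h3c1 (1825 bases) and Hist2h3b (488 bases) lie wholly within bases that other annotated genes share. Hist1h2aa and Hist1h2ba, known from testis, are among these 10, and the testis linker histone Hist1h1t averaged 0.0259 FPKM. Germ cell markers summed to at most 0.865 FPKM in a library.

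**Figure D1:**
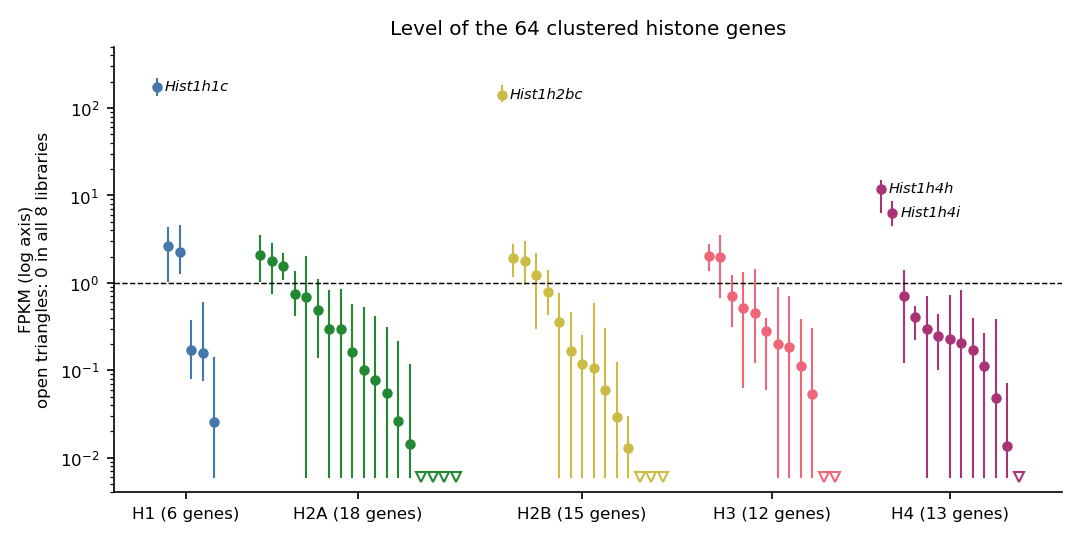
Level of each clustered histone gene in FPKM on a log axis, grouped by class. Points are means over 8 libraries, vertical lines run from the lowest to the highest library (drawn down to the foot of the axis where a library is at 0), open triangles are genes at 0 in every library and the dashed line is the limit of 1 FPKM for testing; Hist1h1c and Hist1h2bc stand far above the rest.

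Among the genes with a stem-loop, 11 of the 12 tested ones are annotated with over 100 bases of transcript beyond it, against 11 of the 32 untested ones. The median annotated stretch was 796 bases in the tested and 40 bases in the untested genes. Hist1h4h is the tested gene with the shortest stretch, 46 bases, and Hist1h1c has 840 bases. The protocols do not say whether RNA was selected by its poly(A) tail. The level was not tested against the annotated length. The gene length behind the deposited FPKM, recovered from their steps, was shorter than the annotated exons in 7 of these 12 tested genes (476 against 2482 bases for Hist1h2ac, 748 against 1930 for Hist1h1e) and equal in 4, among them Hist1h1c, so that the measured gene models may lack part or all of the stretch.

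**Figure D2:**
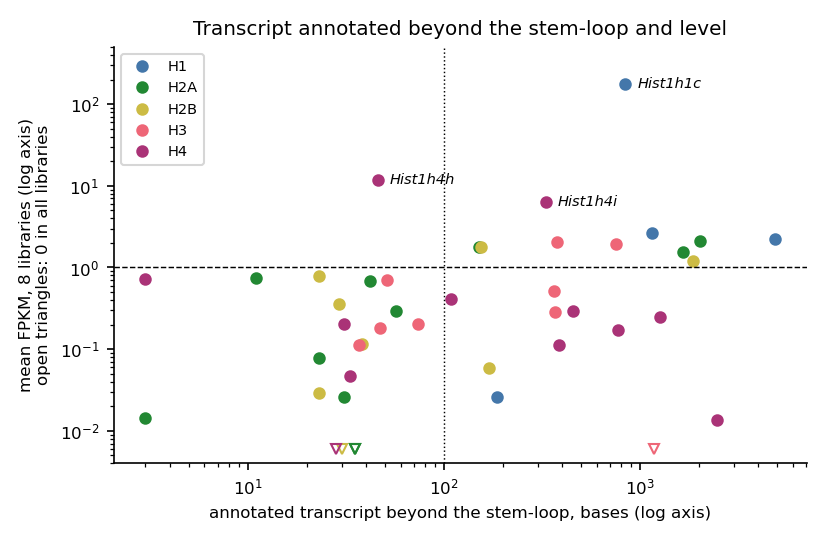
Bases of annotated transcript beyond the stem-loop (log axis) and mean FPKM over 8 libraries (log axis) for the 44 genes with a stem-loop, coloured by class. The dashed line marks 1 FPKM and the dotted line 100 bases; Hist1h4h is the 1 tested gene to the left of the dotted line, and open triangles are genes at 0 in every library.

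Near-identical copies limit the low values. The share of a gene's 50-base stretches that another clustered histone gene also holds had a median of 26.9% in tested genes, 58.7% in untested genes above 0 and 64.4% in genes at 0. It was 8.54% for Hist1h1c, 29.4% for Hist1h2bc, 45.8% for Hist1h4h, 28.9% for Hist1h4i and 63.5% for Hist2h3c2. These are shares of the annotated transcripts. The gene length behind the FPKM was shorter in 8 of the 14 tested genes, among them Hist1h2bc (736 against 1156 bases). Within the measured gene models the share may therefore be higher, and it was not computed. How the submitters treated fragments that match several genes is not given in the sources used here, so levels of single members of such pairs are uncertain. The libraries were not strand-specific. Hist1h1e and Hist1h2be share annotated exon bases, as do Hist3h2a and Trim17 and each H2A gene and a small predicted gene, and reads from such partners cannot be told apart.

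The samples were myotubes by their markers: Acta1, skeletal muscle actin, reached 5127 to 7898 FPKM, and all 6 myotube markers averaged at least 1 FPKM. Endothelial markers summed to at most 0.491 FPKM and macrophage and leukocyte markers to at most 2.43 FPKM in a library. Markers of proliferating cells summed to 19.6 to 49.3 FPKM. Control 12 h replicate 2 stood apart: its log2 values correlated with those of its partner at 0.947, against 0.992 to 0.996 within the other groups. In that library 233 tested genes, none of them a histone gene, were more than 4 times lower than in the lowest of the other 7 libraries, against 0 to 4 genes in each other library. Their median recovered length was 5667 bases, against 3067 over all tested genes, and they include Casp8ap2 (0.0741 FPKM, against 0.432 to 3.20 elsewhere). Atrx, a long gene, stood at 10.7 and 0.147 FPKM in control and at 9.52 FPKM or more in both MPC EV libraries at 12 h, and at 0.764 to 2.55 FPKM in the 4 libraries of 24 h. The part of RNA quality in the differences over time was not tested. In bulk samples, fewer cells of a type and less RNA per cell cannot be told apart.

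Comparing MPC EV with control myotubes at 12 h asks what the progenitor vesicles changed early. At 12 h, 3 of the 14 tested histone genes fell and none rose: Hist1h1c, Hist1h2bc and Hist1h4i, the most abundant H1 and H2B genes and an H4 gene. Over all genes, 14.3% were called lower and 4.36% higher. Tests were made with limma on log2(FPKM + 0.5), two-sided, with Benjamini-Hochberg adjustment over all tested genes and a threshold of 0.05; this scale understates the change of low genes.

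Hist1h1c stood at 193 and 217 FPKM in the control libraries at 12 h and at 165.8 and 166.3 FPKM in the MPC EV libraries. Both MPC EV libraries were below both controls, and the means were 204.7 ± 16.9 and 166.1 ± 0.305 FPKM (SD, n = 2). The difference on the log2 scale was -0.30 ± 0.074 (SE), so that the level fell by 18.7% (limma adjusted p = 0.0403).

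Hist1h2bc stood at 159 and 178 FPKM in the controls and at 128 and 119.7 FPKM with MPC EVs. The groups again did not overlap, and the log2 difference was -0.44 ± 0.079 (limma adjusted p = 0.0192). It fell by 26.2%, the change with the smallest adjusted p among the 14.

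Hist1h4i, which encodes core histone H4, stood at 7.12 and 8.45 FPKM in the controls and at 4.76 and 5.40 FPKM with MPC EVs, on 60 to 122 fragments. The log2 difference was -0.57 ± 0.14 (limma adjusted p = 0.0378). The level fell by 32.5%, without overlap of the groups. Hist1h4h, which encodes the same protein, stood at 14.0 and 11.4 FPKM in the controls and at 10.4 and 6.46 FPKM with MPC EVs. Its libraries did not overlap either, but its log2 difference of -0.59 ± 0.22 missed the threshold (limma adjusted p = 0.102), with MPC EV libraries that lay further apart.

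The remaining tested genes did not pass at 12 h. The other H1 genes, Hist1h1e and Hist1h1d (H1.3), had log2 differences of -0.23 ± 0.26 and -0.32 ± 0.32. The H2A genes ranged from -0.31 (Hist3h2a) to 0.51 (Hist1h2ae), with Hist1h2ac at -0.04. In H2B, Hist1h2bg was at -0.42 ± 0.43, Hist1h2be at 0.07 ± 0.23 and Hist2h2be at 0.16 ± 0.18. The H3 genes Hist2h3c2 and Hist1h3d were at -0.24 and 0.29. In all, 10 of the 14 differences were below 0, with a median of -0.27 against -0.12 over all genes. Of the 14 genes, 6 were lower in both MPC EV libraries than in both controls, against 45% of all genes.

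The median gene itself was lower with MPC EVs at 12 h, and relative to it Hist1h1c was at -0.18, Hist1h2bc at -0.32 and Hist1h4i at -0.45. With median-ratio scaling, which moves the median gene from -0.12 to 0.01, Hist1h2bc was the 1 histone gene that passed, and calls over all genes went from 479 higher and 1566 lower to 735 higher and 548 lower. Hist1h2bc also passed alone without control 12 h replicate 2 or without either control library of 24 h, and none passed without any 1 of the 4 MPC EV libraries. Without control 12 h replicate 1 the same 3 passed and Hist1h2ae was called higher, in a fit that called 31.8% of all genes lower and 19.9% higher.

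**Figure D3:**
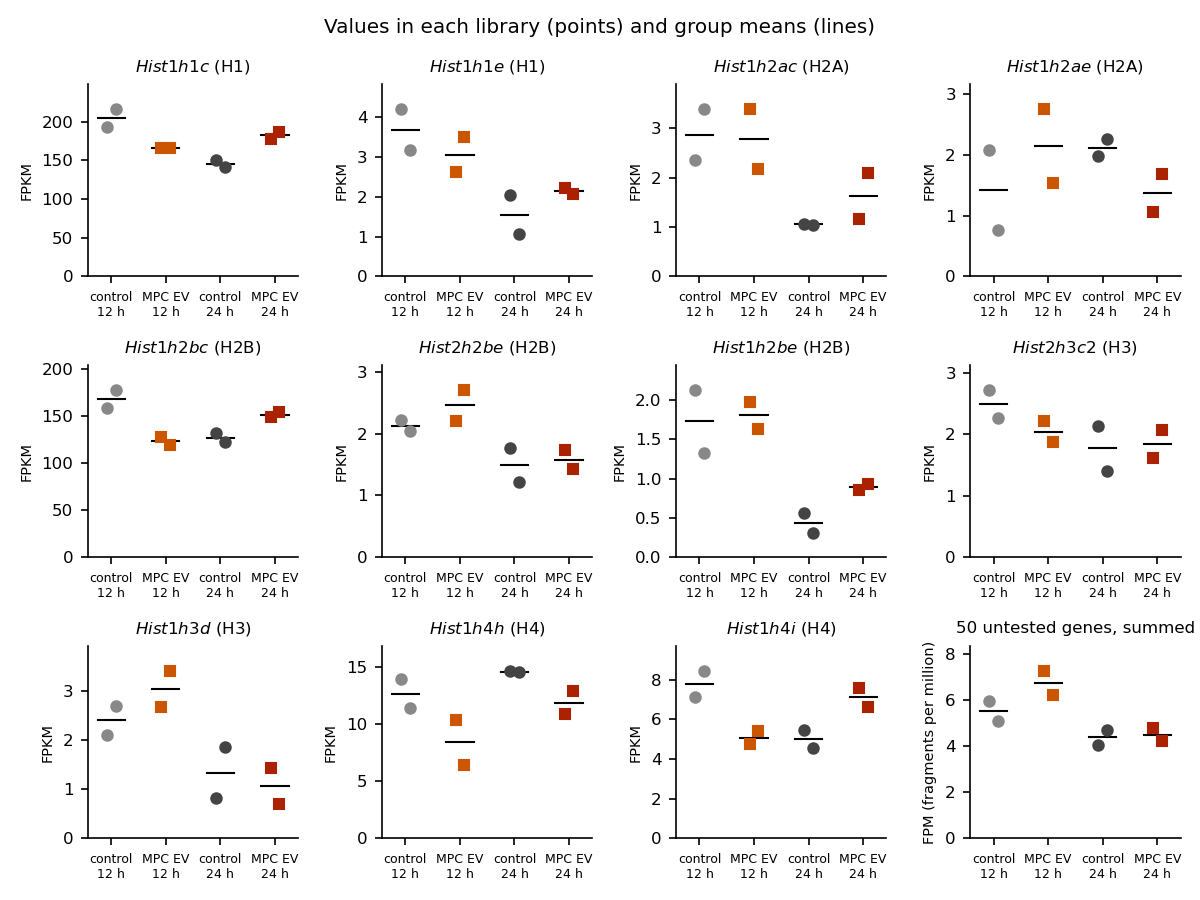
FPKM of 11 histone genes in each of the 8 libraries (points, circles for control and squares for MPC EV) with group means (lines, n = 2), and in the last panel the summed FPM of the 50 untested genes. In Hist1h1c, Hist1h2bc and Hist1h4i both MPC EV libraries lie below both controls at 12 h and above both at 24 h.

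At 24 h the same comparison gave 0 of 14 histone genes past the threshold (limma; limma-voom on the recovered fragments also called 0), against 3.57% of all genes. An unadjusted p under 0.05 was reached by 4 of the 14 and by 14.2% of all genes. The most abundant genes lay on the other side of their controls than at 12 h. Hist1h1c stood at 150.2 and 141 FPKM in the controls and at 178 and 187 FPKM with MPC EVs, a log2 difference of 0.32 ± 0.074 (limma adjusted p = 0.0821). Hist1h2bc stood at 132 and 122 FPKM in the controls and at 149 and 154 FPKM with MPC EVs, a log2 difference of 0.26 ± 0.079 (limma adjusted p = 0.183). In both genes the MPC EV libraries were above both controls.

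Hist1h4i stood at 5.44 and 4.57 FPKM in the controls and at 7.58 and 6.65 FPKM with MPC EVs, again without overlap (log2 difference 0.47 ± 0.14, limma adjusted p = 0.159). Hist1h4h went the other way, with 14.7 and 14.6 FPKM in the controls and 10.9 and 12.9 FPKM with MPC EVs (log2 difference -0.29 ± 0.22, limma adjusted p = 0.713). The H4 genes therefore differed in the sign of their fitted value at 24 h, and neither passed. Among lower genes, Hist1h2be stood at 0.563 and 0.305 FPKM in the controls and at 0.856 and 0.937 FPKM with MPC EVs, on 15 to 41 fragments. Its log2 difference was 0.59 ± 0.23 (limma adjusted p = 0.311).

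In all, 11 of the 14 differences at 24 h were above 0, with a median of 0.19 against -0.03 over all genes, and 6 genes were higher in both MPC EV libraries than in both controls, against 23.7% of all genes. Hist1h1c passed as higher with median-ratio scaling (adjusted p = 0.0347), with quantile normalization (0.0307) and in a limma fit of the 4 libraries of 24 h alone (0.0257). Without control 12 h replicate 1 or without control 12 h replicate 2, Hist1h1c and Hist1h2bc both passed as higher in limma, against 5.48% and 5.32% of all genes.

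Whether the effect of the vesicles differed between the times was tested directly. No histone gene passed (limma; limma-voom called 0), and neither did any of the 10981 genes (0%, also with limma-voom). An unadjusted p under 0.05 was reached by 3 of the 14 and by 18.3% of all genes. These 3 were the genes whose MPC EV libraries lay below both controls at 12 h and above both at 24 h, as 6.79% of all genes did. The difference of the effects, 24 h minus 12 h on the log2 scale, was 0.69 ± 0.11 for Hist1h2bc, 0.62 ± 0.10 for Hist1h1c and 1.04 ± 0.19 for Hist1h4i (limma adjusted p = 0.114, 0.114 and 0.13). Without control 12 h replicate 1, these 3 passed as higher and Hist1h2ae as lower, but that fit called 33.4% of all genes, so 4 of 14 is near the share over all genes. Over both times together no histone gene passed (limma; limma-voom called 0), against 8.54% of all genes. Hist1h4h alone had an unadjusted p under 0.05, as had 26.2% of all genes. It was at -0.44 ± 0.16 (limma adjusted p = 0.128), lower in the MPC EV group at both times, and Hist1h1c was at 0.01 ± 0.13.

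**Figure D4:**
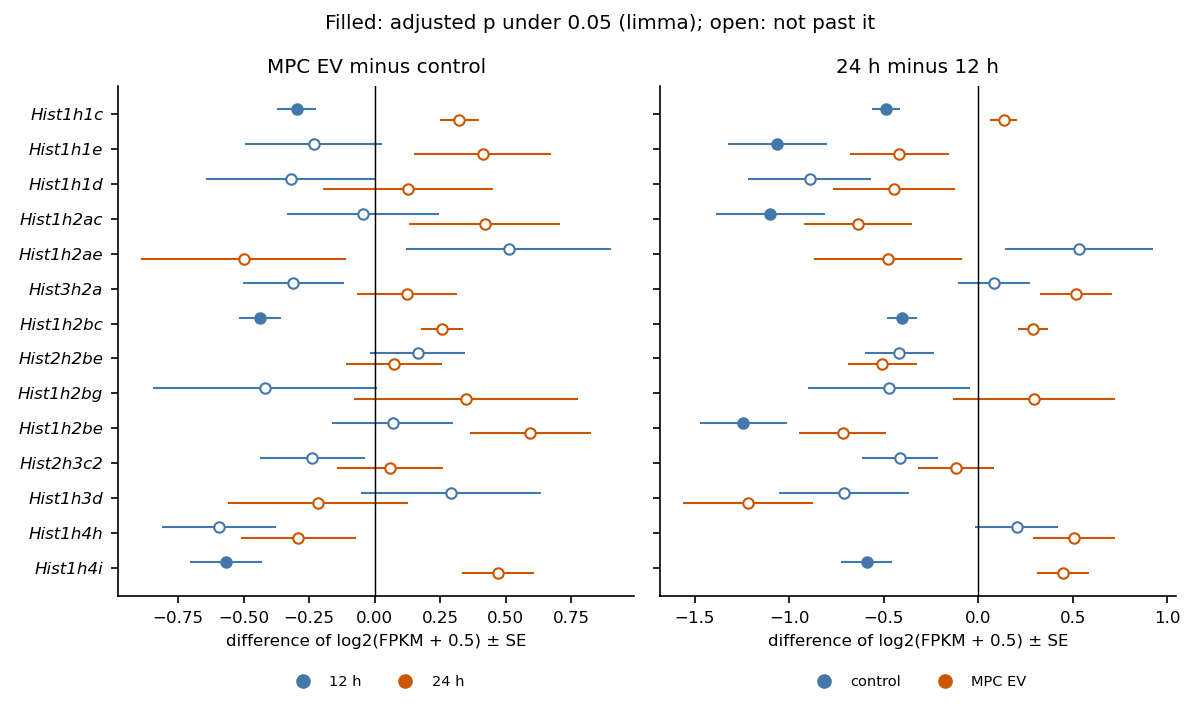
Differences of log2(FPKM + 0.5) with their SE for the 14 tested histone genes: on the left MPC EV minus control at 12 h and 24 h, on the right 24 h minus 12 h in control and in MPC EV myotubes. Filled points passed an adjusted p of 0.05 in limma, open points did not; Hist1h1c, Hist1h2bc and Hist1h4i are filled at 12 h and no gene at 24 h.

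Comparing 24 h with 12 h over both treatments, 5 of the 14 genes fell and none rose, against 9.18% of all genes called lower and 13.5% called higher. They were Hist1h2be (H2B), Hist1h1e (H1), Hist1h2ac (H2A), Hist1h3d (H3) and Hist2h2be (H2B), which are low genes of 1.22 to 2.61 FPKM. Hist1h2be and Hist1h1e share annotated exon bases, so their falls may not be separate. Hist1h1c (-0.18 ± 0.13) and Hist1h2bc (-0.06 ± 0.14) did not pass.

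Hist1h2be fell most, by 0.98 ± 0.18 on the log2 scale (limma adjusted p = 0.00852). It stood at 2.13 and 1.32 FPKM in control and at 1.97 and 1.64 FPKM in MPC EV myotubes at 12 h, and each of the 4 libraries of 24 h (values above) was lower than each of these. Hist1h3d fell by 0.96 ± 0.25. It stood at 2.10 and 2.70 FPKM in control and at 2.68 and 3.41 FPKM in MPC EV myotubes at 12 h, and at 0.815, 1.86, 1.42 and 0.695 FPKM in the same order at 24 h, on 7 to 35 fragments.

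Hist1h2ac fell by 0.87 ± 0.21 (limma adjusted p = 0.0228). It stood at 2.35 and 3.39 FPKM in control and at 3.40 and 2.18 FPKM in MPC EV myotubes at 12 h, and at 1.07, 1.04, 1.16 and 2.10 FPKM at 24 h. Hist1h1e fell by 0.74 ± 0.21 (limma adjusted p = 0.0418), from 4.21 and 3.17 FPKM in control and 2.62 and 3.50 FPKM in MPC EV myotubes to 2.03, 1.06, 2.21 and 2.08 FPKM. In both genes, as in Hist1h2be, each library of 24 h lay below each library of 12 h. These are the values that the test used, so the separation adds nothing to it. The share of all genes separated in this way is not given here.

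Hist2h2be fell by 0.46 ± 0.13 (limma adjusted p = 0.0354), from 2.22 and 2.04 FPKM in control and 2.20 and 2.71 FPKM in MPC EV myotubes to 1.76, 1.21, 1.73 and 1.42 FPKM. Its fragments, 64 to 130 in a library, make it one of the better measured low genes. The remaining genes that did not pass included Hist1h4h at 0.36 ± 0.16 and Hist3h2a at 0.30 ± 0.15, and the H3 gene Hist2h3c2, with 2.72, 2.27, 2.21 and 1.87 FPKM at 12 h and 2.14, 1.41, 1.62 and 2.07 FPKM at 24 h, at -0.27 ± 0.15. Hist1h2ae stood at 2.09, 0.767, 2.76 and 1.54 FPKM at 12 h and at 1.98, 2.26, 1.06 and 1.69 FPKM at 24 h, at 0.03 ± 0.32, with groups that overlapped.

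Of the 14 time differences, 11 were below 0, with a median of -0.22 against 0.06 over all genes. The number that passed moved when 1 library was left out, which leaves 1 in its group, and so did the calls over all genes. Over these 8 fits the time difference of Hist1h2be ranged from -1.08 to -0.82. Its extremes came without MPC EV 12 h replicate 2 and without control 12 h replicate 1.

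The time difference was then taken within each treatment, a comparison added after the data were seen. In control myotubes 6 of 14 genes fell and none rose, against 10.3% of all genes called lower and 7.54% called higher. Hist1h1c fell by 0.49 ± 0.074 (limma adjusted p = 0.00782) and Hist1h2bc by 0.40 ± 0.079 (adjusted p = 0.0183). Hist1h2be fell by 1.24, Hist1h2ac by 1.10, Hist1h1e by 1.06 and Hist1h4i by 0.59. As above, the falls of Hist1h2be and Hist1h1e may not be separate. In MPC EV myotubes 0 of 14 passed (limma; limma-voom called 0), against 18.3% of all genes. An unadjusted p under 0.05 was reached by 6 of the 14 and by 34.1% of all genes. There Hist1h1c was at 0.13 ± 0.074, Hist1h2bc at 0.29 ± 0.079 (adjusted p = 0.0502), Hist1h4i at 0.45 ± 0.14 and Hist1h3d at -1.22 ± 0.34 (adjusted p = 0.0564). These comparisons share the same 8 libraries with the vesicle comparisons, and the test of whether the time differences differed between treatments is the one already given.

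Within these time comparisons the numbers of calls moved when 1 library was left out. Such a fit leaves 1 library in a group, and the calls over all genes moved as well. In control myotubes the time difference of Hist1h1c was -0.57 without control 12 h replicate 1 and -0.40 without control 12 h replicate 2. Without control 24 h replicate 1 it was -0.53. In MPC EV myotubes 4 passed without either control library of 12 h: Hist1h2bc and Hist1h4i as higher, Hist1h2be and Hist1h3d as lower. These fits called 38% and 37.6% of all genes, so that 4 of 14 is no more than the share over all genes.

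Summed over a whole class, the fragments of the H1 genes made up 307 and 342 FPM in control and 263 and 264 FPM in MPC EV myotubes at 12 h. At 24 h they made up 237 and 222 FPM in control and 280.1 and 295 FPM in MPC EV myotubes. The H2B genes gave 129 and 141.5 FPM, then 106.5 and 101 FPM at 12 h, and 104 and 95.3, then 118 and 121.6 FPM at 24 h. Both sums follow their leading gene, and their groups do not overlap at either time.

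The other classes were far lower. H4 gave 12.8 and 12.8 FPM in control and 10.5 and 8.67 FPM in MPC EV myotubes at 12 h, and 12.1, 11.7, 11.7 and 12.3 FPM at 24 h. H2A stayed between 5.43 and 7.10 FPM in all libraries. H3 lay between 4.85 and 6.18 FPM at 12 h and between 3.67 and 4.04 FPM at 24 h, so that its libraries of the 2 times did not overlap. The 50 untested genes together gave 5.98 and 5.09 FPM in control and 7.27 and 6.22 FPM in MPC EV myotubes at 12 h, and 4.06, 4.71, 4.78 and 4.23 FPM at 24 h. That is 76 to 126 fragments in a library, and each library of 12 h was above each of 24 h. These sums were not tested.

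**Figure D5:**
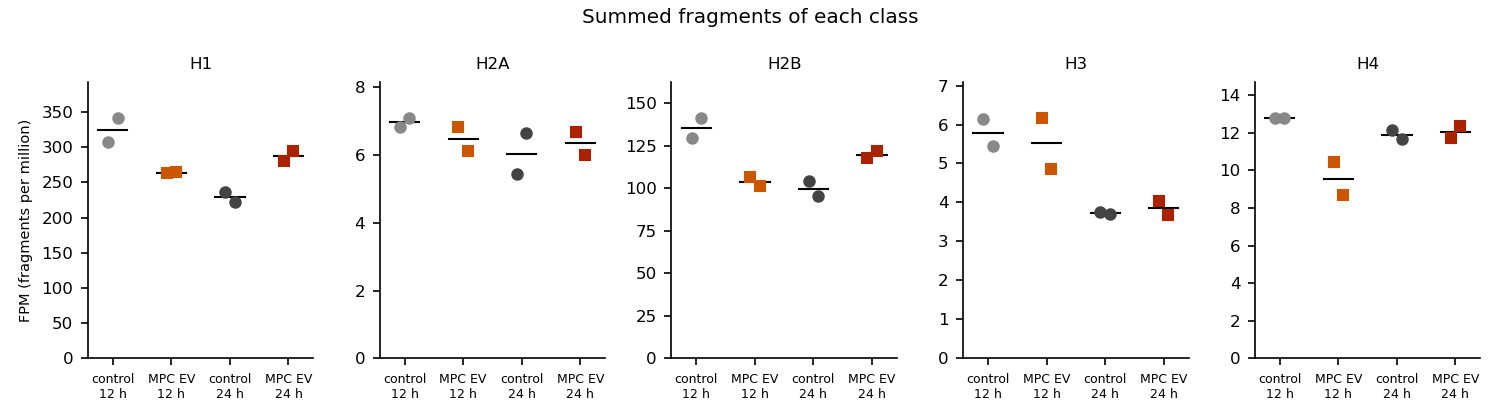
Summed fragments (FPM) for each histone class in each of the 8 libraries (points, circles for control and squares for MPC EV) with group means (lines, n = 2). H1 and H2B are highest in control at 12 h and lower with MPC EVs at 12 h, and H3 is lower at 24 h than at 12 h in every library.

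The ratio of Hist1h1c to Hist1h2bc FPKM stayed within 1.14 to 1.39 in the 8 libraries. The ratio of Hist1h4h to Hist1h4i ranged from 1.20 to 3.19, with 1.96 and 1.35 in control and 2.18 and 1.20 in MPC EV myotubes at 12 h, and 2.70, 3.19, 1.43 and 1.94 at 24 h. The latter rests on 56 to 139 fragments of each gene and varied within groups as well as between them.

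Genes that act on histone genes or change with DNA replication were counted on lists drawn up with earlier results of these data known. Of 41 tested S-phase genes, 24 fell and 1 rose (E2f2) with MPC EVs at 12 h, against the 14.3% and 4.36% of all genes given above, with a median of -0.45 against -0.12 over all genes. Examples are Rrm2, a subunit of ribonucleotide reductase, at -1.28, Mcm6 of the replicative helicase at -0.66, Rfc4 of the clamp loader at -0.74, Pcna, the sliding clamp, at -0.40, and Rrm1 at -0.45. At 24 h 0 of 41 passed in limma, against 3.57% of all genes, with a median of 0.15. An unadjusted p under 0.05 was reached by 12 of them in limma and by 14.2% of all genes. In limma-voom 2 rose (E2f2 and Mcm4), against 2.55% of all genes called higher. Without control 12 h replicate 2, 18 fell and 1 rose at 12 h, against 10.4% of all genes called lower, and at 24 h Cdt1 and Mcm4 rose and Rrm2 fell. Over both times 2 fell (Rrm2 at -0.92 and Rfc4 at -0.54) and E2f2, a transcription factor of the E2F family, rose by 0.67. Of all genes 8.54% were called there. With time 2 of the 41 fell, E2f2 by 1.29 and Cdk2, a kinase of the S-phase entry, by 0.45, against 9.18% of all genes called lower.

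The replacement histones can be made outside S phase, from genes that are not among the 64. Of 11 tested, 4 fell and none rose with MPC EVs at 12 h, against 14.3% of all genes called lower, with a median of -0.29: H2afj at -0.62, H2afz at -0.53, H2afx at -0.45 and H3f3b, which encodes H3.3, at -0.27. None passed at 24 h or over both times in limma or limma-voom. An unadjusted p under 0.05 in limma was reached by 1 and 5, against 14.2% and 26.2% of all genes. H1f0, without control 12 h replicate 2, was called higher at 12 h and over both times, and Cenpa lower at 24 h and over both times. With time 4 rose and none fell, against 13.5% of all genes called higher: Cenpa, the centromeric H3, rose by 1.36, H1fx by 0.84, H2afj by 0.54 and H1f0, a linker histone known from differentiated cells, by 0.48.

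Of 23 tested histone chaperones and assembly factors, 5 fell at 12 h and none rose, against 14.3% of all genes called lower, and the median of -0.16 was near the -0.12 over all genes. The 5 are Chaf1a and Chaf1b, subunits of the replication-coupled assembly factor CAF-1, at -0.46 and -0.64, Ssrp1 of the FACT complex at -0.34, Rbbp4 at -0.40 and Tonsl at -0.51. None passed at 24 h in limma or limma-voom, where 4 had an unadjusted p under 0.05 in each, against 14.2% of all genes in limma. Rbbp4 fell over both times, by 0.30, where 8.54% of all genes were called. With time Hjurp, the CENP-A chaperone, rose by 0.34, Ubn1 by 0.25 and Daxx by 0.24, and Rbbp4 fell by 0.21, 4 of 23 in all, against 13.5% of all genes called higher and 9.18% lower. When control 12 h replicate 2 was left out, 8 fell at 12 h, Rbbp4 fell at 24 h, and Asf1a, Rbbp4 and Nap1l1 fell over both times.

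Of 20 tested factors of histone 3′ end formation and transcription, 4 fell at 12 h and none rose, near the 14.3% of all genes called lower, with a median of -0.18: Lsm10, a protein of the U7 particle, at -0.51, Nelfe at -0.35, Srrt at -0.31 and the cleavage factor Cpsf3 at -0.28. At 24 h and over both times none passed in limma or limma-voom. In limma 0 and 4 had an unadjusted p under 0.05, against 14.2% and 26.2% of all genes. With time Hinfp, a transcription factor of H4 genes, rose by 0.34 and the exonuclease Eri1 by 0.37, while Srrt fell by 0.48 and Ncbp2 of the cap-binding complex by 0.26, against the same shares of all genes. With control 12 h replicate 2 left out, which leaves 1 library in its group, more of these factors and more of all genes were called with time. With median-ratio scaling fewer genes of these lists passed as lower at 12 h, as over all genes, of which 4.99% did. They were 13 S-phase genes, 2 replacement histones (H2afz and H2afj) and 2 chaperones (Rbbp4 and Tonsl, with Ubn1 higher). None of the 3′ end and transcription factors passed, of which 4 had an unadjusted p under 0.05 in limma.

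Slbp, the stem-loop binding protein, did not pass in any of the 7 comparisons in limma. It stood at 11.9 and 10.5 FPKM in control and at 9.84 and 10.1 FPKM in MPC EV myotubes at 12 h (log2 difference -0.16 ± 0.095), and at 8.78, 9.67, 9.61 and 10.4 FPKM at 24 h (0.11 ± 0.095). Its time difference in control was -0.26 ± 0.095 (limma adjusted p = 0.109), which passed as lower when control 12 h replicate 2 was left out. Npat, the coactivator of histone gene transcription, stood at 5.27 and 0.74 FPKM in the control libraries of 12 h and at 2.27 to 5.19 FPKM in the others. Its log2 differences of 1.02 ± 0.67 at 12 h and -0.30 ± 0.67 at 24 h did not pass. Casp8ap2, another factor of histone gene transcription, had differences of 1.21 ± 0.81 and -0.19 ± 0.81. In both genes control 12 h replicate 2 was the lowest of the 8 libraries.

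Other cell states moved beside the histone genes. At 12 h the summed markers of proliferating cells stood at 19.6 to 31.5 FPKM in control and 21.5 to 21.8 FPKM with MPC EVs. Over the 4 libraries of 24 h they stood at 41.6 to 49.3 FPKM. In limma 3 of 5 rose with time (Cdk1, Ccna2 and Ccnb1) and none fell. Over all genes, 13.5% were called higher and 9.18% lower. The 5 did not all move together. Mki67 stood at 3.16 and 0.14 FPKM in control and 2.16 and 2.67 FPKM with MPC EVs at 12 h. At 24 h it stood at 1.21, 2.01, 0.651 and 1.74 FPKM in the same order. Its lowest value and the lowest sum are from control 12 h replicate 2. At 12 h 2 of these 5 fell with MPC EVs (Cdk1 and Ccnb1) and none rose, against 14.3% of all genes called lower. Of the 6 myotube markers, 2 rose with MPC EVs at 12 h (Myh3 and Ttn) and 2 at 24 h (Myh3 and Ckm), and 4 fell with time (Mymk, Myh3, Myog and Ckm). The shares of all genes were 4.36% higher at 12 h, 2.61% higher at 24 h and 9.18% lower with time. At 12 h Ttn stood at 25.9 and 30.2 FPKM with MPC EVs and at 11.8 and 3.66 FPKM in control. The lowest of these is from control 12 h replicate 2, the library that stood apart. Fibroblast markers, 2 of 6 of which were tested, summed to 26.0 to 27.3 FPKM in control and 19.1 to 22.2 FPKM in MPC EV myotubes at 12 h, and to 31.4 to 33.2 and 25.7 to 26.2 FPKM at 24 h. Smooth muscle and pericyte markers summed to 5.04 to 6.02 and 3.66 to 4.40 FPKM at 12 h, and to 8.71 to 8.84 and 5.07 to 5.26 FPKM at 24 h. Both sums were lower with MPC EVs at both times, without overlap. Most of the fibroblast sum is Col1a1 and Col3a1, and the members did not all move together. Pdgfra, an untested fibroblast marker, was higher with MPC EVs at both times, without overlap. It stood at 0.65 and 0.828 FPKM in control and 0.888 and 0.838 FPKM with MPC EVs at 12 h. At 24 h it stood at 0.865, 0.777, 1.23 and 0.872 FPKM in the same order.

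Myogenic progenitor markers summed to 126 to 133 FPKM in control and 141.0 to 146.5 FPKM in MPC EV myotubes at 12 h, and to 87.3 to 90.9 and 100.3 to 106 FPKM at 24 h. Most of this sum is Cdh15, a muscle cadherin, and the members did not move together. Vcam1 stood at 24.4 and 23.9 FPKM in control and at 15.2 and 17.3 FPKM in MPC EV myotubes at 12 h, and at 14.8, 13.6, 18.2 and 17.8 FPKM at 24 h. Myf5 stood at 7.48, 5.39, 5.65 and 6.91 FPKM at 12 h and at 15.1 and 14.6 FPKM in control and 9.09 and 8.19 FPKM in MPC EV myotubes at 24 h. The part of these markers in the histone differences was not tested.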

How the data were processed

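Per the labels' protocols, paired-end libraries without strand information were made with NEBNext Ultra and read on a NovaSeq; the submitters' processing notes name HISAT2, DESeq2 and mm10 without saying what each was used for. The deposited values are the authors' FPKM per gene. Their annotation and their treatment of multiply matching fragments are not given in any source used here.

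From these FPKM, log2(FPKM + 0.5) was fitted with limma 3.58.1 (R 4.3.3; empirical Bayes with an intensity trend), for genes that averaged 1 FPKM or more, with Benjamini-Hochberg adjustment over all 10981. One fit of the 4 groups gave the vesicle effects at 12 h and 24 h, their difference and the time effects within a treatment; an additive fit of treatment and time gave the effects over both. The spread is shared by all libraries in a fit, and with 2 libraries a group there are 4 and 5 residual degrees of freedom before moderation.

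FPKM are whole multiples of what 1 fragment is worth. Totals per library and the smallest gene length that makes all 8 values whole (tolerance 1e-06) were solved for; this gave whole numbers for 99.99% of 21406 genes above 0. The lengths so found differ from the GENCODE vM21 exon length for many genes. Fragments were used for precision, class sums and a limma-voom alternative.

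Every histone gene at or above 1 FPKM is named; values by library are given for the 2 highest of each class and for those that passed a comparison. From each related list up to 5 genes with the smallest adjusted p were named, with Slbp, Npat and Casp8ap2; further genes were named after their values were seen. The members and lists were chosen with earlier results of these data known. The fit and the recovery were tested on simulated data with known changes. For the difference of the effects, 11.9% of simulated log2 changes of 0.5 and 41.8% of changes of 1 were called. The shares were 23.9% and 62.7% at 12 h, and 34.3% and 85.1% at 24 h. The simulated spread was the same at both times and each share rests on 67 genes, so the gap between the times is not interpreted. Far fewer genes were changed in the simulation than were called at 12 h in the data, so its shares may not carry over. A count of 0 genes passed therefore does not show that levels were unchanged. Alternatives were pseudocount, filter, scaling, variance trend, replicate block, libraries left out, and each time alone.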

Additional observations from a re-analysis of the deposited data

Results flagged for a closer look

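For 3 histone genes both MPC EV libraries were below both controls at 12 h and above both at 24 h, a pattern that 6.79% of all tested genes showed. The difference of the effects (24 h minus 12 h, log2 scale) was 0.62 for Hist1h1c, 0.69 for Hist1h2bc and 1.04 for Hist1h4i; in limma it did not pass after adjustment over all genes (adjusted p 0.114, 0.114 and 0.13). None of the 14 showed the opposite pattern.

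The same reversal between the times appeared in 8 of the named genes of the related lists, and in 22 of the 41 tested S-phase genes. The difference of the effects was 0.43 for Srrt, 0.24 for Daxx, 0.55 for H2afx, 0.86 for Mcm6, 0.48 for Pcna, 0.71 for Mcm4, 0.84 for Cdt1 and 0.89 for Vcam1, and none passed after adjustment in limma (adjusted p 0.0985 to 0.299). The control libraries of 12 h enter each of these differences, and control 12 h replicate 2 stood apart from its partner.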

How the results depend on the processing

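The numbers of histone genes that passed, with the values that moved by more than 1.5 times, were these. With MPC EVs at 12 h, 3 passed, against 18.6% of all genes. The number was 1 with median-ratio scaling, quantile normalization or limma-voom on recovered fragments (11.7%, 11.4% and 16.3% of all genes). With only the 4 libraries of 12 h fitted it was 0, where 0.1% of all genes passed. At 24 h, 0 passed, against 3.57% of all genes. The number was 1 with median-ratio scaling (4.07%), quantile normalization (3.22%) or only the 4 libraries of 24 h (6.95%). For time over both treatments 5 passed, against 22.7% of all genes. With a filter at 5 FPKM, which leaves 4 histone genes, 0 passed (25% of all genes). With no filter, which tests more genes, 3 passed (10.4% of all genes). For time in control 6 passed (17.8% of all genes), and 3 with the filter at 5 FPKM (20.7%). For time in MPC EV 0 passed (18.3% of all genes). There 1 passed with that filter (Hist1h2bc, higher, 22.4% of all genes) or with quantile normalization (Hist1h2be, lower, 13.9%). Where no cause is named it was not tested. The fits below without 1 library leave 1 in a group, and the share of all genes called changed in them too.

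Leaving out 1 library gave 0 to 4 at 12 h, 0 to 2 at 24 h, 0 to 4 for the difference of the effects, 0 over both times, 2 to 6 for time, 0 to 7 for time in control and 0 to 4 for time in MPC EV. Npat, at 0.08 for time, ranged from -0.50 without control 12 h replicate 2, where it passed as lower, to 0.39 without control 12 h replicate 1. Casp8ap2, at 0.01 for time in control, ranged from -1.34 without control 12 h replicate 2 to 1.35 without control 12 h replicate 1, and passed in both.

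The replicate numbers share only a number: deviations of same-numbered libraries correlated between -0.613 and 0.241 over the 6 pairs of groups. With the number as a replicate block, 1 histone gene passed at 12 h (Hist1h2bc), against 10.1% of all genes. For time 3 passed, against 18.6%, and for time in control 3, against 13.5%. The other counts of histone genes did not change.

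Over all genes, calls for the time effect went from 1485 higher and 1008 lower to 1318 and 1404 with median-ratio scaling, for both times from 461 and 477 to 679 and 356, and for time in MPC EV from 1420 and 593 to 816 and 839. The low genes rest on 7 to 139 fragments a library, which limits what can be detected in them.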
